A study of Mus musculus with 15 samples.

Results

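The genes of 7 long noncoding RNAs (lncRNAs) were followed in the kidneys of mice with adenine-induced chronic kidney disease (CKD). 4 of them are nuclear-retained (Malat1, Neat1, Meg3 and Kcnq1ot1), and 3 are not (H19, Gas5 and Snhg1). They were taken by symbol from GENCODE M21, the mouse annotation on GRCm38, and all 7 were found among the 54532 genes of the table, of which 9680 are lncRNA genes. RNA was read from 1 kidney of each of 15 male C57BL/6 mice, 8 weeks old at the start and 5 to a group. The controls (C) ate normal diet, the model mice (M) ate 0.25% adenine for 4 weeks, and the AA mice ate the same adenine diet and were given 30 mg/kg of asiatic acid (AA) by daily gavage. Adenine-free diet followed until week 8, with gavage continued; C and M mice received the vehicle. Adenine crystals injure the tubules of the whole kidney, so the model is not limited to 1 cell type, and the samples are whole tissue. Values are FPKM, sequenced fragments scaled to the length of the gene and to the size of the library, so levels are given per length.

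Long noncoding RNAs are transcripts without a translated reading frame, and many work in the nucleus where they are made. Malat1 sits in nuclear speckles, the stores of splicing factors, and Neat1 is the scaffold of paraspeckles, nuclear bodies that appear in stressed cells. Meg3 and Kcnq1ot1 are imprinted: Meg3 is expressed from the maternal chromosome at the Dlk1 locus, and Kcnq1ot1 is an antisense RNA made from the paternal chromosome that silences its neighbours. H19 is the maternally expressed partner of Igf2 and is abundant in the fetus. Gas5 and Snhg1 carry small nucleolar RNAs (snoRNAs) in their introns, and their spliced RNAs are exported and degraded when ribosomes read them.

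On GRCm38, Malat1 (ENSMUSG00000092341) lies at chr19:5795690-5802672 and Neat1 (ENSMUSG00000092274) beside it at chr19:5824708-5845478, both on the minus strand. Meg3 (ENSMUSG00000021268) spans chr12:109541001-109571726 on the plus strand, and Kcnq1ot1 (ENSMUSG00000101609) chr7:143203458-143296549 on the minus strand. H19 (ENSMUSG00000000031) is at chr7:142575529-142578143 on the minus strand, Gas5 (ENSMUSG00000053332) at chr1:161034422-161038539 and Snhg1 (ENSMUSG00000108414) at chr19:8723475-8726443, both on the plus strand.

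The libraries were made from RNA captured on poly-T beads, so stretches of A inside a transcript are shown for the nuclear-retained genes. Each line gives the longest run of A in the longest annotated transcript, in capitals, with 15 bases on each side in the direction of transcription (GENCODE M21 sequences, GRCm38).
Malat1: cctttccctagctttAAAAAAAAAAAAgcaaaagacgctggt
Neat1: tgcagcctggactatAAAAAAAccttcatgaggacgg
Meg3: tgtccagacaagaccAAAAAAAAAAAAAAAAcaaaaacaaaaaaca
Kcnq1ot1: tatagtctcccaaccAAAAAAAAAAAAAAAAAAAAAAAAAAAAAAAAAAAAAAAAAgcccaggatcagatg
The Malat1 run has 12 A and lies at chr19:5795973-5796014 on the minus strand, 298 bases before the annotated end of the 6983-base transcript. Malat1 RNA is not tailed in the usual way but ends in such a genome-encoded A-rich stretch, which folds into a triple helix. The Neat1 run has 7 A (chr19:5835919-5835955, minus strand), and no run of 8 or more A was found in its 20771 bases. The Meg3 run has 16 A (chr12:109545802-109545847, plus strand), near the start of the transcript. The Kcnq1ot1 run has 41 A (chr7:143226930-143227000, minus strand), and its 93092 bases hold 30 runs of 8 or more A. Runs of 8 or more A occurred in the longest transcript of 16.4% of lncRNA genes and of 28.4% of protein-coding genes, and in none of H19, Gas5 and Snhg1.

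For the snoRNA host genes, the first 30 bases of the transcript are shown, because some host genes are known to start with a pyrimidine tract that ties their RNA to translation (RefSeq starts, GRCm38.p6). Capitals mark a C followed by at least 4 more C or T at the very start.
Gas5, start at 161035166: CTTTCggagctgtgcggcattctgagcagg
Gas5, start at 161034601: gagctcgacagcccggagccaaaggggcgg
Snhg1: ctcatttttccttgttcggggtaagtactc
The first Gas5 window is chr1:161035166-161035195, the second chr1:161034601-161034630 and that of Snhg1 chr19:8723487-8723516, all on the plus strand. Such a start was found in 2.51% of all 32851 promoter windows, searched on the transcribed strand only. By gene, it was found in 813 of 27025 genes and in 2 of the 15 snoRNA host genes with a window. Of the translation genes examined below, which are known to start so, 10 had a window and 4 of these met the criterion. The criterion thus missed most of those known starts. Malat1, Meg3 and Kcnq1ot1 had windows and no such start, and the letters in a window say nothing about use of that start here.

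The libraries differed in ways that touch these genes. Mitochondrial genes took 53.0 to 62.5% of the reads in C, 64.0 to 86.8% in M and 69.2 to 87.2% in AA, and the reads outside them, recovered from the steps between FPKM values, ranged from 2077628 to 13576596. M 1, M 2 and M 3 stood apart: they had 226 to 340 lncRNA genes with FPKM above 0, against 1951 to 3633 in the other 12 libraries. Reads on Xist, the RNA of the inactive X chromosome, numbered 478 in M 2 and 353 in M 3 and at most 44 in each other library, although all mice were male and each library had reads on at least 2 of 4 Y-linked genes. Markers of the proximal tubule, the main cell type of the kidney cortex, summed to 3016 to 12454 FPKM in C, 85.4 to 538 in M and 156 to 541 in AA, with all 8 of them above 0 on average in each group. Kap was the largest part of these sums, and all 8 markers had negative log2 fold changes against C, for M and for AA alike. Macrophage markers, 6 genes, summed to 15.9 to 90.7 FPKM in C, 123 to 413 in M and 92.1 to 151 in AA. Lyz2 was the largest part of the M and AA sums, with means of 194 and 86.9 FPKM, beside 13.3 in C. Within C, Lyz2 was at 49.6 FPKM in C 4 and at most 7.12 elsewhere. Of the 6, 5 had positive log2 fold changes against C, for M as for AA (Cd68 only 0.02 for AA). Csf1r went the other way, with means of 10.3, 4.93 and 3.01 FPKM in C, M and AA. Fibroblast and myofibroblast markers, 6 genes, summed to 61.6 to 140 FPKM in C, 122 to 424 in M and 263 to 454 in AA. Lymphocyte markers summed to 0.891 to 16.2, 0 to 16.8 and 9.40 to 16.8 FPKM in C, M and AA. In the same order, thick ascending limb and distal tubule markers summed to 63.4 to 207, 17.9 to 87.2 and 37.7 to 63.1. Collecting duct markers summed to 31.5 to 449, 3.74 to 23.4 and 7.24 to 16.8. Podocyte and endothelial sums overlapped between all groups. The part of these cell types in the lncRNA values was not tested. In whole tissue, fewer cells of a type and less RNA per cell cannot be told apart.

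In the C kidneys Neat1 was the most abundant of these RNAs at 69.0 ± 42.9 FPKM (SD, n = 5), followed by Malat1 at 34.9 ± 10.9. Their ranges overlapped, and Neat1 exceeded Malat1 in 4 of 5 C libraries. Gas5 at 8.95 ± 1.39 and Snhg1 at 2.27 ± 0.758 came next, each in a range of its own. Meg3 at 0.497 ± 0.254 and Kcnq1ot1 at 0.302 ± 0.0661 overlapped each other, and H19 was lowest at 0.0218 ± 0.0323. In AA the order was Malat1, Gas5, Snhg1, Meg3, Neat1, Kcnq1ot1 and H19, so that Neat1 moved from the first place to the fifth. From Malat1 down to Neat1, each pair of neighbours in that order overlapped.

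**Figure D1:**
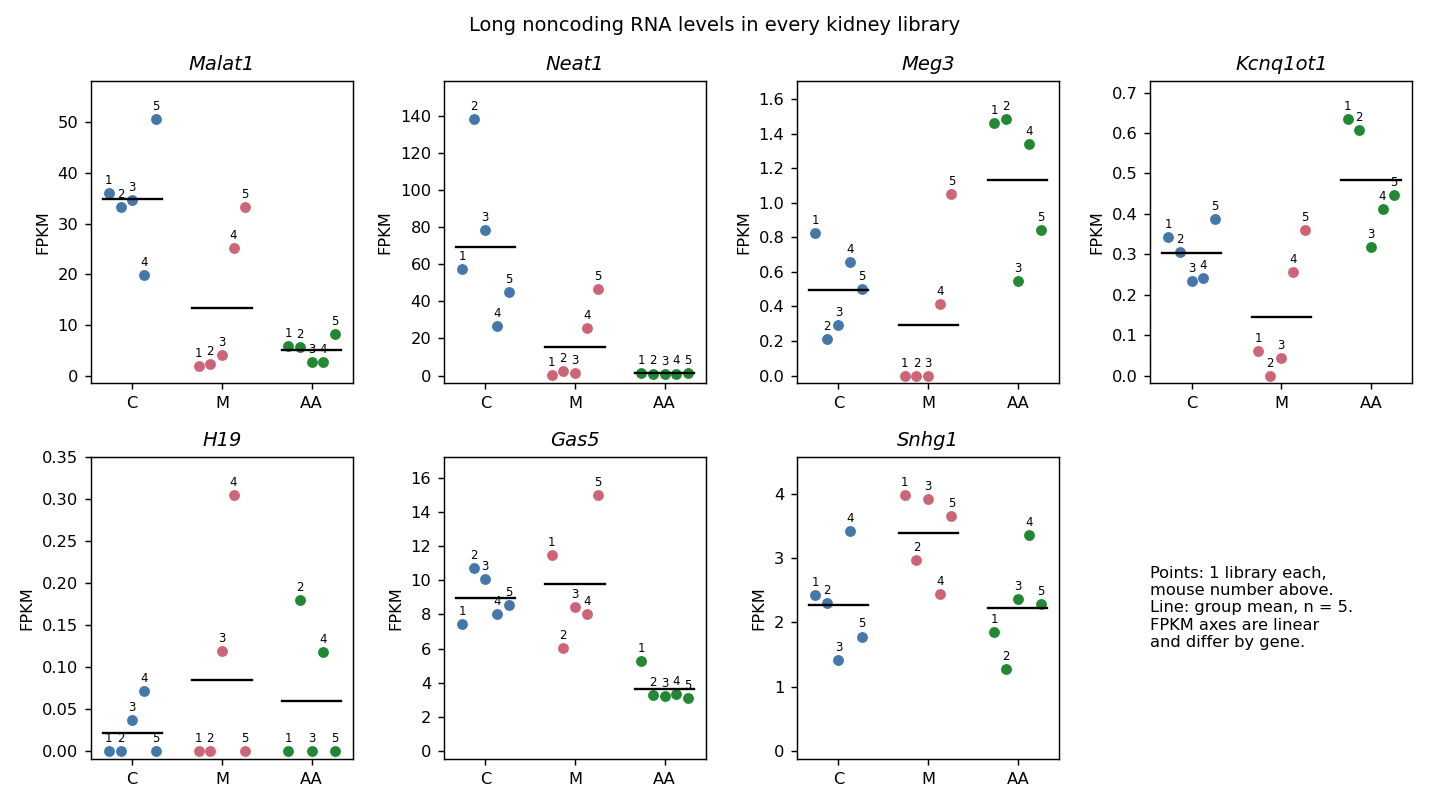
FPKM of the 7 genes (linear vertical axes, a scale for each gene) in C, M and AA; each point is a library with its mouse number, and the line is the mean of 5. Malat1 and Neat1 are high in all C libraries and in M 4 and M 5, and low in M 1 to 3 and in all AA libraries.

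Neat1 fell most of these genes between AA and C. Its FPKM was 57.5, 138, 78.2, 26.6 and 44.8 in C 1 to 5, and 1.16, 1.08, 1.01, 1.09 and 1.19 in AA 1 to 5. The groups did not overlap, and the AA libraries lay close together (SD 0.0696). The log2 fold change was -4.85 (SE 0.35, limma adjusted p = 5.51e-05), 28.8-fold on the log2(FPKM + 1) scale, and only 5 of the 21898 genes tested had a lower one. These levels rested on 203 to 466 reads per AA library and 18723 to 115154 per C library.

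Malat1 fell as well. It had 36.0, 33.3, 34.6, 19.8 and 50.5 FPKM in C 1 to 5 and 5.83, 5.70, 2.58, 2.59 and 8.27 in AA 1 to 5. All AA libraries were below all C libraries. The log2 fold change was -2.63 (SE 0.32, limma adjusted p = 0.000302), 6.17-fold.

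Gas5, the snoRNA host, was the third gene that fell. It had 7.44, 10.7, 10.1, 8.00 and 8.54 FPKM in C 1 to 5, and 5.25, 3.27, 3.24, 3.37 and 3.10 in AA 1 to 5. The groups again did not overlap, with AA 1 the highest of its group. The log2 fold change was -1.11 (SE 0.20, limma adjusted p = 0.0021).

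Of the 6 genes that could be tested in AA vs. C, 3 were thus called lower and 0 higher by limma (adjusted p at or below 0.05, with a log2 fold change of 1 or more in size). Of all genes tested, 9.61% were called lower and 10.2% higher, and of the lncRNA genes 5.34% and 18.3%. The same 3 genes did not overlap between the groups, as 12.5% of all genes did in this direction. Each of the 3 stayed called with any library left out, with adjusted p-values of at most 0.0069. At an unadjusted p below 0.05, Meg3 was the only further gene, and 10243 of all 21898 genes had such a p.

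The other pair of nuclear-retained RNAs did not follow Malat1 and Neat1. Meg3 had 0.826, 0.210, 0.292, 0.657 and 0.502 FPKM in C 1 to 5 and 1.46, 1.48, 0.545, 1.34 and 0.841 in AA 1 to 5. The AA values were mostly higher and the groups overlapped. The log2 fold change was 0.50 (95% interval 0.07 to 0.94, limma adjusted p = 0.0664). Kcnq1ot1 had 0.343, 0.306, 0.234, 0.240 and 0.387 in C and 0.633, 0.607, 0.319, 0.411 and 0.446 in AA, again with overlap, and its log2 fold change was 0.18 (95% interval -0.06 to 0.43, adjusted p = 0.222). Neither was called, and the Kcnq1ot1 value turned sign on the TPM scale (-0.17) and with limma voom on the recovered reads (-0.28). Because 1 is added before the logarithm, these differences of low genes are understated.

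Snhg1, the other snoRNA host, was not called in AA vs. C. It had 2.42, 2.30, 1.41, 3.41 and 1.78 FPKM in C 1 to 5 and 1.85, 1.27, 2.36, 3.35 and 2.28 in AA 1 to 5. The ranges were nearly the same, and the log2 fold change of -0.02 had a 95% interval of -0.53 to 0.49 (limma adjusted p = 0.951). It was -0.84 on the TPM scale and -1.01 with limma voom on the recovered reads, not called in either. H19 was above 0 in 2 libraries of each group and at 0.305 FPKM at most, in M 4, from 22 reads. It did not reach the 5 libraries needed for the test, and its partner Igf2 averaged at most 0.00448 FPKM in each group.

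**Figure D2:**
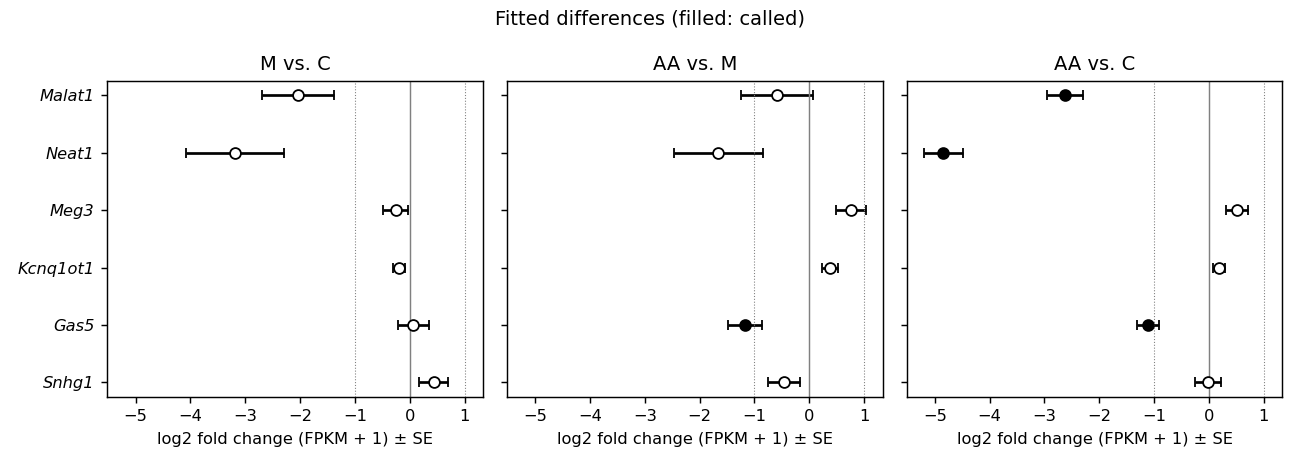
Log2 fold changes on log2(FPKM + 1) with their standard errors (horizontal axes, 5 libraries a group) for the 6 genes tested; filled points were called. Malat1, Neat1 and Gas5 were called in AA vs. C, Gas5 in AA vs. M, and none in M vs. C.

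In M vs. C, 0 of the 6 genes were called by limma, where 1.38% of all genes tested were, 1.11% lower and 0.269% higher, and of lncRNA genes 0.764% lower and 0.0424% higher. Each of the 6 overlapped between M and C, while 3.67% of all genes were lower in M without overlap. At an unadjusted p below 0.05 there were 2, Malat1 and Neat1, and 3493 of all 21153 genes tested. Limma voom on the recovered reads called 3, Malat1, Neat1 and Meg3, all lower in M. In that fit 1785 of all 21153 genes were called lower and 33 higher, and the median of all genes was -1.63. The M group was split. Malat1 had 1.83, 2.25, 4.08, 25.1 and 33.2 FPKM in M 1 to 5, and Neat1 had 0.266, 2.60, 1.27, 25.6 and 46.4. For both, M 1 to 3 were below every C library, and M 4 and 5 reached into the range of C, except that Neat1 in M 4 lay just under the lowest C value. The log2 fold change over all 5 was -2.04 for Malat1 (SE 0.66, adjusted p = 0.156) and -3.19 for Neat1 (SE 0.89, adjusted p = 0.102).

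Values with and without the 3 libraries that stood apart differed. With M 4 and 5 alone, limma called 0 of the 6 genes, and 0% of the 20868 genes tested, of which 2489 had an unadjusted p below 0.05. Malat1 then had a log2 fold change of -0.21 (95% interval -1.04 to 0.63) and Neat1 one of -0.77 (-2.06 to 0.52). With M 1 to 3 alone both were called lower (-3.26 and -4.80, limma adjusted p = 0.000489 and 0.000496), where 15.8% of all genes were called lower and 4.09% higher. With only M 2 and M 3 left out, limma called 0 of the 6 in M vs. C and 0 of all 20966 genes tested, of which 2007 had an unadjusted p below 0.05, and the values were -1.34 for Malat1 and -2.37 for Neat1. The proximal tubule markers summed to 85.4 to 538 FPKM in M 1 to 3 and 192 to 351 in M 4 and 5, sums that were mostly Kap. The mean log2(FPKM + 1) of the 8 markers, in which Kap weighs less, was 1.14 to 2.37 in M 1 to 3. It was 2.57 to 2.81 in M 4 and 5. Of the 8 markers, 4 to 7 were above 0 in M 1 to 3 and all 8 in M 4 and 5. The part of the proximal tubule in the Malat1 and Neat1 values was not tested.

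Meg3 was listed at 0 in M 1 to 3 and at 0.417 and 1.05 FPKM in M 4 and 5. At the average level of C, between 94.0 and 122 reads would have been counted on Meg3 in M 1 to 3, and 0 were. Values of 0 were common in M 1 to 3, which had 226 to 340 lncRNA genes above 0, against 1951 to 3633 in the other libraries. Why Meg3 was at 0 in them was not tested. Kcnq1ot1 had 0.0611, 0, 0.0443, 0.255 and 0.360 FPKM in M 1 to 5, with the same split. The log2 fold changes were -0.26 (SE 0.22) for Meg3 and -0.20 (SE 0.11) for Kcnq1ot1, with adjusted p-values of 0.582 and 0.403. The sign of both turned when libraries were centred on their medians (0.10 and 0.17) and when M 4 and 5 alone were used (0.20 and 0.01).

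The snoRNA host genes of the group showed no such split. Gas5 had 11.5, 6.06, 8.42, 8.03 and 14.97 FPKM in M 1 to 5, around the values of C. Its log2 fold change was 0.07 (95% interval -0.55 to 0.69, limma adjusted p = 0.911). Snhg1 had 3.98, 2.97, 3.92, 2.43 and 3.65, above the C mean in all 5, and 0.44 (-0.13 to 1.02, adjusted p = 0.427). For both, the ranges of M 1 to 3 and of M 4 and 5 overlapped. The sign of both values turned on the TPM scale (-0.88 and -0.32) and with limma voom on the recovered reads (-0.79 and -0.20).

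**Figure D3:**
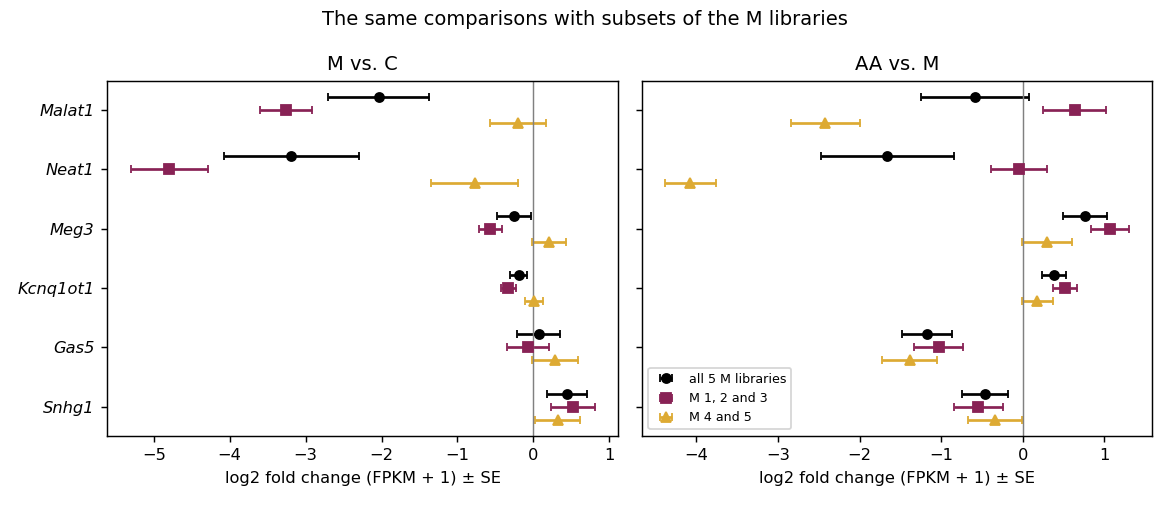
Log2 fold changes on log2(FPKM + 1) with standard errors for M vs. C and AA vs. M, with all 5 M libraries, with M 1, 2 and 3, and with M 4 and 5. Malat1 and Neat1 move most with the choice: -3.26 and -4.80 against C with M 1 to 3, -0.21 and -0.77 with M 4 and 5.

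In AA vs. M, which shares the AA libraries with AA vs. C and the M libraries with M vs. C, Gas5 was the single gene of the 6 that was called. All AA libraries were below all M libraries, and the log2 fold change was -1.17 (SE 0.31, limma adjusted p = 0.0188). Of all genes 12.8% were called, 1.07% lower and 11.7% higher, and 1.31% were lower without overlap, while of lncRNA genes 0.207% were called lower and 27.8% higher. Gas5 stayed called with any library left out, with M 4 and 5 alone (-1.39) and with M 1 to 3 alone (-1.03). It was not called on the TPM scale or with limma voom on the recovered reads, where the values were -1.28 and -1.51.

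Neat1 had a log2 fold change of -1.66 (95% interval -3.40 to 0.08, limma adjusted p = 0.176) and Malat1 one of -0.59 (-2.01 to 0.83, adjusted p = 0.583) in AA vs. M. The averages differ by which M libraries they hold. Against M 4 and 5 alone, Neat1 (-4.08) and Malat1 (-2.42) were called lower in AA with Gas5, where 6.23% of all genes were called lower and 2.39% higher. Against M 1 to 3 alone, Neat1 differed by -0.05 (-0.80 to 0.70) and Malat1 by 0.63 (-0.21 to 1.48), and neither was called. Meg3 (0.76, SE 0.27, adjusted p = 0.0631) and Kcnq1ot1 (0.38, SE 0.14, adjusted p = 0.0843) had positive values and were not called. With limma voom on the recovered reads Meg3 was called higher in AA, at 5.55 (SE 1.49, adjusted p = 0.0314). In that fit 1638 of all 19798 genes were called higher and 41 lower. With M 1 to 3 alone Meg3 was called higher (1.07), where 19.5% of all genes were called higher and 2.8% lower. Kcnq1ot1 turned sign in AA vs. M when libraries were centred on their medians (-0.13) or quantile normalized (-0.06).

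All 4 nuclear-retained genes had values below 0 in M vs. C, and their signs were mixed in the comparisons with AA. Their median log2 fold change was -1.15 in M vs. C, -0.10 for AA vs. M and -1.22 for AA vs. C, beside 0.26, -0.82 and -0.56 for Gas5 and Snhg1 and -0.12, 0.17 and 0.09 for all genes tested. The difference of the medians was -1.40, 0.72 and -0.66. In AA vs. C that median lay between genes of opposite sign, Malat1 and Neat1 at -2.63 and -4.85, and Meg3 and Kcnq1ot1 above 0. Against M, the sign of the AA difference turned with M 4 and 5 alone, where it was -0.26.

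Ratios within a library do not depend on how the library was scaled. Neat1 to Malat1 was 0.887 to 4.14 in C and 0.144 to 0.421 in AA, so that all AA libraries were below all C libraries. Neat1 to Gas5 was 3.33 to 12.9 in C and 0.220 to 0.383 in AA, also without overlap. Malat1 to Gas5 was 2.48 to 5.92 in C and 0.767 to 2.66 in AA, with overlap. In M 4 and 5, Malat1 to Gas5 was 3.13 and 2.22, near C, and in M 1 to 3 it was 0.159, 0.371 and 0.485, below every AA library.

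**Figure D4:**
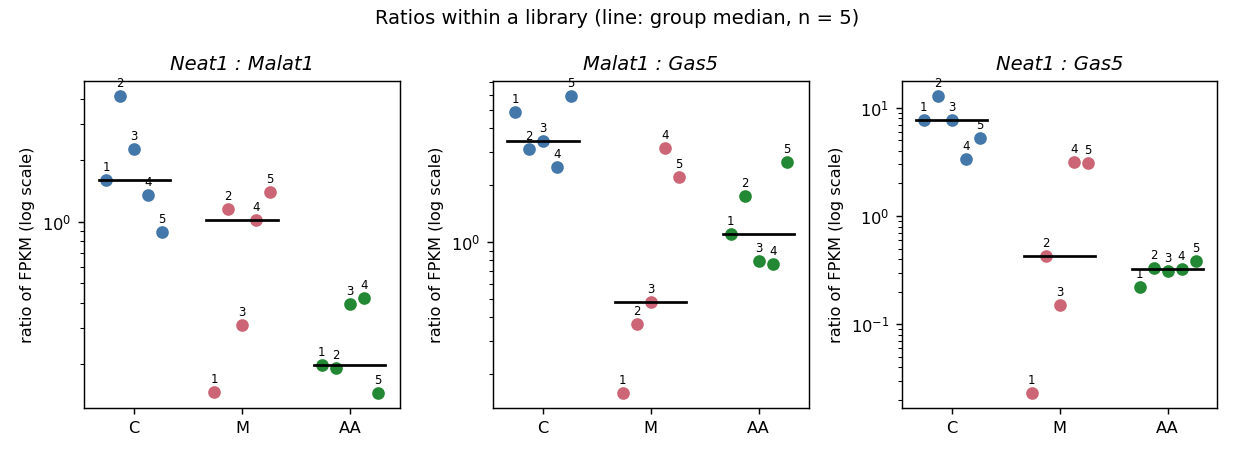
Ratios of FPKM within each library (logarithmic vertical axes) for Neat1 to Malat1, Malat1 to Gas5 and Neat1 to Gas5; points carry mouse numbers and lines are medians of 5. Neat1 to Gas5 is 3.33 to 12.9 in C and 0.220 to 0.383 in AA.

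Of the library properties, the mitochondrial share moved with Malat1 and Neat1, and its part in their levels was not tested. AA 4 had the lowest share in its group, 69.2%, below the 72.9% of M 4. Malat1 was at 2.59 FPKM in AA 4 and 25.1 in M 4, and Neat1 at 1.09 and 25.6. When libraries were brought to equal totals outside the mitochondrial genes, the AA vs. C values were -2.72 for Malat1 and -4.93 for Neat1, both called. Meg3 and Kcnq1ot1 moved with another property. 1733 olfactory and vomeronasal receptor genes, which the kidney is not known to use broadly, had a mean FPKM of 0.00478 to 0.0556 in C, 0.0868 to 0.177 in AA, 0.0320 and 0.0432 in M 4 and 5, and 0.000746 to 0.00354 in M 1 to 3. Meg3 was at 0 in the 3 libraries with the lowest mean, and its highest values, 1.46 and 1.48, were in AA 1 and AA 2, which had the highest. Kcnq1ot1 was at 0 to 0.0611 in the former and at 0.633 and 0.607 in the latter. Between these ends the order did not hold. AA 3 had a receptor mean of 0.0954 and Meg3 at 0.545, while C 1 had 0.0556 and 0.826 and M 5 had 0.0432 and 1.05. The part of such reads in the Meg3 and Kcnq1ot1 values was not tested.

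**Figure D5:**
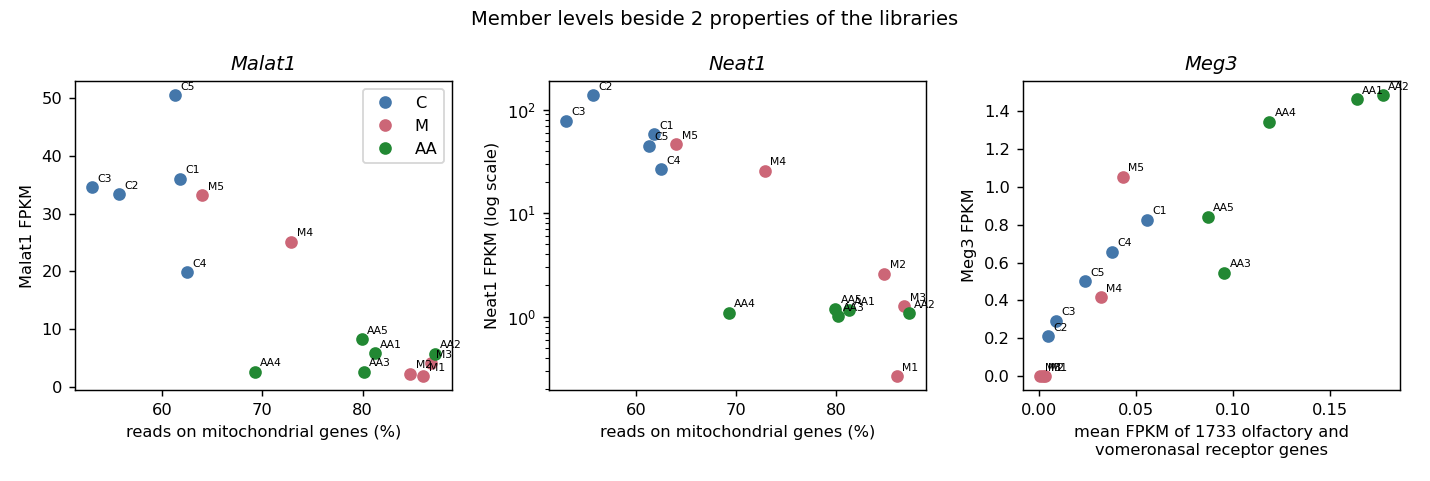
Malat1 and Neat1 (FPKM, Neat1 on a logarithmic axis) against the percent of reads on mitochondrial genes, and Meg3 against the mean FPKM of 1733 receptor genes; each point is a library. AA 4 has fewer mitochondrial reads than M 4 (69.2% and 72.9%) and a Malat1 level of 2.59 against 25.1 FPKM.

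The runs of A were set against the differences of all lncRNA genes. In AA vs. C, 17.9% of the 726 lncRNA genes tested that hold a run of 8 or more A were called higher, and 18.5% of the 1800 that hold none. In the other direction it was 2.75% and 6.39%. Against M, 24.3% with a run and 29.3% without were called higher. Genes with a run had longer transcripts, with a median of 2326 against 1254 bases in AA vs. C.

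The wider family of snoRNA host genes was also examined. Of 17 host genes (the Snhg genes, Gas5, Zfas1 and Epb41l4aos), 15 were tested in AA vs. C, and 8 were called lower and 0 higher. In that fit 9.61% of all genes were called lower. The median of the hosts was -1.11, beside 0.09 for all genes. It was negative under each of 5 other scalings tried, with 8 to 11 called lower. The 11 were found on the TPM scale and with limma voom. There 5923 and 6986 of all 21898 genes were called lower, and the medians of all genes were -0.39 and -0.75. The largest falls were those of Snhg20 (-3.62, SE 0.33), Snhg11 (-2.48, SE 0.33) and Epb41l4aos (-2.45, SE 0.61), and limma adjusted p-values were 0.00011, 0.000428 and 0.00925. Snhg20 had 10.96, 30.0, 8.99, 7.59 and 17.3 FPKM in C 1 to 5, was listed at 0 in M 1 to 3, had 12.6 and 21.9 in M 4 and 5, and was at most 0.668 in AA. This was the split of Malat1 and Neat1. Against M, 2 hosts were called lower in AA, Gas5 and Snhg8 (-1.77), and 7 with M 4 and 5 alone. The shares of all genes called lower were 1.07% and 6.23%. With all M libraries, 7 were called lower after centring on library medians, 4 after quantile normalization, 0 on the TPM scale and 0 with limma voom. In the same order, 1600, 695, 7 and 41 of all 19798 genes were called lower. In M vs. C, 0 were called by limma and the median was -0.05. An unadjusted p below 0.05 was found for 3 hosts and for 3493 of all 21153 genes.

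The annotation lists 10 snoRNA genes within Gas5, 8 within Snhg1, 2 microRNA genes within Meg3 and 1 within H19. All 21 were listed at 0 in all 15 libraries. The libraries were built from fragments selected for length, but 191 other genes of snoRNAs and small nuclear RNAs could be tested in AA vs. C. The annotated exons of Snhg1 cover all 2969 bases of its span, and those of Gas5 cover 3760 of 4118. Why the 21 were at 0 was not tested.

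Genes of the protein partners of Malat1 and Neat1 were examined next. Of 14 genes of paraspeckle proteins, 5 were called lower and 0 higher in AA vs. C, led by Hnrnph3 (-2.08), Taf15 (-2.08) and Ewsr1 (-1.80), RNA-binding proteins of the FET and hnRNP families. The proteins that bind Neat1 as its core, Sfpq, Nono and Pspc1, were not called, at -0.48, 0.38 and -0.04. Of 9 nuclear speckle proteins, 4 were called lower, led by the splicing factors U2af2 (-1.71), Acin1 (-1.55) and Sf3b1 (-1.26), and Son, the core of the speckle, was at 0.97 and not called. The medians were -0.71 and -0.996, beside 0.09 for all genes tested, of which 9.61% were called lower. Both medians were negative under each of 5 other scalings tried, with 5 to 10 and 5 to 8 called lower. The 10 and 8 were found on the TPM scale and with limma voom, where 5923 and 6986 of all 21898 genes were called lower. In M vs. C, limma called 0 of the 23, and 1 had an unadjusted p below 0.05, as did 3493 of all 21153 genes. Against M, Srsf1 (-1.04, limma adjusted p = 0.0331) was the single call with all M libraries, where 1.07% of all genes were called lower. With M 4 and 5 alone 5 paraspeckle and 5 speckle proteins were called lower, where 6.23% of all genes were. These counts depended on the scaling: with all M libraries, 7 and 7 were called lower after centring on library medians and 3 and 5 after quantile normalization. On the TPM scale and with limma voom 0 and 0 were called. Over these 4 scalings, in this order, 1600, 695, 7 and 41 of all 19798 genes were called lower.

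Frmd8, Ltbp3 and Slc25a45 lie near Malat1 and Neat1 on chromosome 19. Slc25a45 (-1.75, limma adjusted p = 0.00332) was called lower in AA vs. C, and Frmd8 (-0.14) and Ltbp3 (-0.23) were not. Wdr74, the neighbour of Snhg1, averaged at most 0.0102 FPKM.

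Kcnq1ot1 lies inside Kcnq1 on the opposite strand, and the way strand was handled in counting is not given in the sources used here, so reads of the pair cannot be told apart. Kcnq1, a potassium channel, averaged 1.35 FPKM in C, 0.155 in M and 0.412 in AA and was not called. Of the 10 genes of its imprinted domain, limma called 2 of 10 tested lower in M vs. C, and 3 of 9 lower for AA vs. C, where 1.11% and 9.61% of all genes were called lower. On the TPM scale and with limma voom the count in AA vs. C was 6, where 5923 and 6986 of all 21898 genes were called lower. Slc22a18, a transporter, had log2 fold changes of -4.75 in the former and -4.05 in the latter (adjusted p = 0.018 and 0.00011). Phlda2, a growth-restraining gene, was at -1.82 and -1.76 (adjusted p = 0.0373 and 0.0033), and Tssc4 at -1.44 in AA vs. C. With M 4 and 5 alone 0 were called in M vs. C. Cdkn1c, the cell cycle inhibitor that the domain is known for, was at -0.27 in M vs. C, at -0.91 in AA vs. C, and was called in neither.

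Beside Meg3, Rian and Mirg are made from the same chromosome strand of the Dlk1 domain. Rian had 0.57 in AA vs. C (limma adjusted p = 0.0165) and 0.61 in AA vs. M (adjusted p = 0.0495), under the fold change needed for a call. Mirg was at 0.16 in AA vs. C, and Dlk1 averaged at most 0.277 FPKM in a group.

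Among 8 other nuclear lncRNAs, Firre, which anchors the inactive X chromosome, was called lower in AA vs. C (-2.68, limma adjusted p = 0.000349) and 5 further were tested and not called. Firre had 0, 1.93 and 0 FPKM in M 1 to 3 and 7.38 and 13.5 in M 4 and 5, the split of Malat1 and Neat1. Among 12 other well-studied lncRNAs, Dancr was called lower in AA vs. C (-1.99, adjusted p = 0.000225) and 9 further were not. In AA vs. C, 9.61% of all genes tested and 5.34% of lncRNA genes were called lower. In M vs. C, limma called 0 of the 18 tested in both lists, and 2 had an unadjusted p below 0.05. Of 14 tested in AA vs. M it called 0, with 3 at an unadjusted p below 0.05. Norad, a cytoplasmic RNA that binds Pumilio proteins, was at 0.93 in AA vs. C (adjusted p = 0.00949), under the fold change needed.

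Translation genes whose RNA is known to start with a pyrimidine tract had no direction that held. Of 16, limma called 2 higher and 0 lower in AA vs. C, Eef1a1 (1.16) and Pabpc1 (1.04), which encode an elongation factor and the poly-A binding protein. Of all genes 10.2% were called higher and 9.61% lower. The median of the 16 was 0.48, but on the TPM scale it was -0.56 with 0 called higher and 2 lower. With limma voom on the recovered reads it was -0.42 with 1 called lower. On the TPM scale and with voom, 5923 and 6986 of all 21898 genes were called lower. In M vs. C the median was 0.73 (-0.23 on the TPM scale) and 0 were called, with 5 at an unadjusted p below 0.05. Limma called 0 in AA vs. M, 0 had an unadjusted p below 0.05, and the median was -0.29. Of all genes, 3493 of 21153 had such a p in M vs. C and 6360 of 19798 in AA vs. M. The M libraries were split here too, with summed levels of 2071 to 2216 FPKM in M 1 to 3 and 540.1 to 826 in M 4 and 5. With M 4 and 5 alone the median for M vs. C was -0.06 and that for AA vs. M was 0.44. Limma called 0 in each, with 0 and 2 at an unadjusted p below 0.05. Of all genes, 2489 of 20868 and 5144 of 19208 had such a p.

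The patterns over the 15 libraries were compared by Pearson's r of log2(FPKM + 1) as a description, since libraries of a group share treatment and the split described above. Among 10987 genes, those most like Neat1 were Clk2 (r = 0.982), a kinase of splicing factors, Lama5 (0.976) and Als2cl (0.975). Those most like Malat1 were Erbb2 (0.965), Trpv4 (0.958) and 4930426D05Rik (0.955), and Malat1 and Neat1 had 0.935 with each other. Meg3 was most like Sema6a (0.974), Gm48293 (0.974) and Gm44967 (0.972), and had 0.911 with Kcnq1ot1 and 0.095 with Malat1. Kcnq1ot1 was most like Vamp8 (0.954), Myo10 (0.952) and Gm17160 (0.951). Gas5 was most like Casp8 (0.931), Rbbp8 (0.913) and Tpcn2 (0.900), and had 0.324 with Snhg1. Snhg1 was most like Rras (0.830), H2-D1 (0.828) and Ier3 (0.822).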

How the data were processed

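The authors trimmed reads with fastp, aligned them with HISAT2 2.0.5 to mm10, counted them with featureCounts 1.5.0-p3 and deposited 1 FPKM value per gene and kidney (tools and build per the labels); the annotation release is not given in the sources used here. Ensembl identifiers were looked up in GENCODE M21, which lacks 37 of them. Between 97.6% and 98.9% of low FPKM values were whole multiples of 1 read (tolerance 0.02, up to 20 reads). The total used in FPKM was 0.518 to 2.30 times the summed reads, so the values are not scaled to plain library totals. The 3 comparisons of groups were tested with limma 3.58.1 in R 4.3.3 (intensity trend) on log2(FPKM + 1) in the 10 libraries compared, for genes above 0 in at least 5, with Benjamini-Hochberg adjustment over all genes tested. A call needed an adjusted p at or below 0.05, with a log2 fold change of 1 or more in size. The labels number the mice but do not describe how kidneys were handled, so p-values measure the spread between these samples. The fit was checked on simulated FPKM values. These were drawn for both groups with the means and spread of the C libraries, so they do not hold the split of the M libraries. All 7 members are named, from each list the called genes (at most 3 per comparison) and others beside their member, and per member the 3 genes with the highest r among genes with a mean FPKM of at least 1 and above 0 in at least 10 libraries. Sfpq, Nono, Pspc1, Son, Norad, Xist and the receptor genes were named after their values were seen. The members and lists were chosen with earlier results of these data known. Alternatives were pseudocounts of 0.1 and 0.01, filters, TPM, other scalings, weights, limma voom on recovered reads, a replicate block and subsets of libraries; leaving out M 2 and M 3 was added after seeing the data.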

Additional observations from a re-analysis of the deposited data

Results flagged for a closer look

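Gas5 in AA 1 was at 5.25 FPKM, far above the other 4 AA libraries (3.10 to 3.37), with a Dixon ratio of 0.875 against a critical value of 0.71. It was the single library found so in 21 groups of 5, where chance gives about 1 in 20. Without it the Gas5 call in AA vs. C and in AA vs. M stood.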

How the results depend on the processing

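In AA vs. C, Malat1, Neat1 and Gas5 were called lower under every alternative run, and with each library left out. In M vs. C, the 0 calls became 2 on the TPM scale, 1 with all 15 libraries in one fit, 3 with limma voom on the recovered reads and 2 with M 1 to 3 alone, and ranged from 0 to 2 with a library left out (2 without M 5). The 1 call in AA vs. M became 0 on the TPM scale, 2 with libraries centred on their medians, 3 with quality weights, 3 with M 4 and 5 alone and 2 with M 1 to 3 alone. With voom it stayed 1 but was another gene, Meg3 higher (5.55), with Gas5 not called. The nuclear-retained minus other difference of medians in M vs. C (-1.40) became -3.03 with a pseudocount of 0.01, -2.87 for genes with a mean FPKM of at least 1, -3.50 with voom and -0.40 with M 4 and 5 alone. For AA vs. M (0.72) it became 1.99 with a pseudocount of 0.01 and 2.20 with voom, and turned sign for genes with a mean FPKM of at least 1 (-0.30), with quality weights (-0.070) and with M 4 and 5 alone (-0.26). In AA vs. C (-0.66) it was -3.17 for genes with a mean FPKM of at least 1, which leaves out Meg3 and Kcnq1ot1. Leaving out a library gave -1.70 to -1.11 in M vs. C and 0.45 to 1.01 in AA vs. M.

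Values of single genes turned sign as follows. In M vs. C, Gas5 was -0.88 (TPM), -0.79 (voom) and -0.072 (M 1 to 3 alone), and -0.087 to 0.21 with a library left out. Snhg1 was -0.32 (TPM) and -0.20 (voom), Meg3 0.10 (centred) and 0.20 (M 4 and 5 alone), and Kcnq1ot1 0.17 (centred), 0.075 (quantile) and 0.0060 (M 4 and 5 alone). For AA vs. M, Kcnq1ot1 was -0.13 (centred) and -0.064 (quantile) and Malat1 0.63 (M 1 to 3 alone). For AA vs. C, Kcnq1ot1 was -0.17 (TPM) and -0.28 (voom), and Snhg1 0.10 (quality weights) and -0.14 to 0.10 with a library left out. The causes were not tested.

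The scalings moved the median of all genes tested, in M vs. C from -0.12 to -0.58 (TPM), 0.24 (centred) and -1.63 (voom), and in AA vs. C from 0.09 to -0.39 (TPM) and -0.75 (voom). Centring in AA vs. M moved it from 0.17 to -0.35, and the share of calls that were higher from 91.6% to 43.1%. Calls over all genes in M vs. C, 57 higher and 234 lower, were 31 and 1578 on the TPM scale and 33 and 1785 with voom, and 0 and 4 without C 5. Replicate numbers did not pair the libraries (correlations of -0.143 to 0.230), and with the replicate block 0, 1 and 3 of the genes were called in the comparisons M vs. C, AA vs. M and, last, AA vs. C, as without it, while calls over all genes in M vs. C fell to 20 higher and 132 lower. H19 had at most 22 reads in a library, which limited it to a description.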

Other observations

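Over all 2526 lncRNA genes tested in AA vs. C, 463 were called higher and 135 lower by limma, so that Malat1 and Neat1 belonged to the smaller direction. Against M, 536 of 1930 were called higher and 4 lower with all M libraries, and 108 of 1854 higher and 37 lower with M 4 and 5 alone. Genes of snoRNAs and snRNAs, which are small nuclear RNAs without poly-A tails, were called higher in 102 of 159 tested in AA vs. M, where 11.7% of all genes were, and in 87 of 191 in AA vs. C, where 10.2% were. With M 4 and 5 alone, 27 of 159 were called higher and 2 lower in AA vs. M, where 2.39% of all genes were called higher. These classes were looked at after values of the 7 genes were known.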
